A study of Mus musculus with 2 samples.

Results

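Dio2, the thyroid hormone receptor genes Thra and Thrb, and the receptor partner gene Rxra were followed in brown fat after cold exposure. All transcripts of these genes were taken by gene symbol in the GENCODE mouse M21 annotation, giving 4 genes of the 15622 with at least 1 read. Of their 23 annotated transcripts, 11 had reads in at least 1 library, with 9 in the cold and 7 in the control library. Their reads numbered 406 in the cold library and 202 in the control library.

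Native poly(A)+ RNA was read by nanopore direct RNA sequencing, which starts at the 3′ end of each molecule and uses no amplification. There was 1 cold and 1 control library of interscapular brown adipose tissue, and the protocol text of both names wild type C57BL/6N males of 20 weeks. The cold library pooled 3 such mice that were singly housed at 4 °C for 24 h. For the control library, which the treatment label calls ctrl, a pool size was not found in the sources used here, and mice were otherwise kept at 22 to 24 °C. The protocol text of both samples describes the cold treatment, and the extraction text names eWAT where the tissue label gives brown fat, so the treatment and tissue labels were followed. The cold library held 1215617 reads and the control library 1698124 reads. Among markers of brown adipocytes, 12 of 12 had reads in both libraries, and Ucp1, the uncoupling protein, had 14526 reads in cold and 14860 in control. With 1 library a group there was no spread between replicates and no test between conditions. Values in parentheses after a ratio, level or share are 95% intervals that cover counting error only. In whole tissue, more cells of a type and more RNA per cell cannot be told apart.

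The thyroid releases mostly thyroxine, a prohormone. The type 2 deiodinase encoded by Dio2 removes 1 iodine from it inside the cell and so makes the active hormone, T3. T3 binds the nuclear receptors encoded by Thra and Thrb, which sit on DNA mostly as heterodimers with a retinoid X receptor such as the product of Rxra. In rodent brown fat the sympathetic nerves raise Dio2 transcription through cAMP, and Dio2 is needed for a full response to cold.

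Dio2 was higher in the cold library, while Thra, Thrb and Rxra were not shown to differ. Dio2 had 284 reads in the cold library and 59 in the control library. Scaled to the library size after trimmed-mean normalisation, its level as read counts-per-million (CPM) was 219.5 CPM (194.7 to 246.6) in cold and 37.0 (28.2 to 47.7) in control. The 2 intervals did not overlap, and the ratio of cold to control was 5.94 (4.47 to 8.0). Among the 7529 genes whose 2 counts summed to 20 or more, this ratio ranked 38th, and 99.5% of these genes had a lower one. A gene was called when its ratio was at least 2-fold with an interval that excluded 1. By that rule Dio2 was called higher and the other members were not, so 1 of 4 was called higher and 0 of 4 lower. Over all 7529 genes, 4.2% were called higher and 4.08% lower, or 8.27% in either direction.

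Dio2 lies on chromosome 12 (GRCm38, 90724552 to 90738438, minus strand). Its annotated transcript, Dio2-201, has 2 exons and 5815 bases, of which 798 are coding and 4863 follow the coding part. The deiodinase is a selenoprotein: a TGA codon inside its reading frame is read as selenocysteine, the residue of the active site. The annotation marks 2 such codons, number 130 and number 263 of 266. The bases around the first are shown because they mark the transcript as that of the enzyme, with the TGA codon in capitals.
Dio2-201 coding bases 361 to 417: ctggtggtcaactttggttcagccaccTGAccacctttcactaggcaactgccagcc

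The stretch before the Dio2 start is shown because Dio2 was the member that differed and its promoter is known in mammals to respond to cAMP. It is taken from RefSeq (GRCm38.p6), whose start site lies 600 bases upstream of the M21 start, and covers chr12:90739039-90739288 on the minus strand. The capitals mark TGACGTCA, the cAMP response element, which begins 95 bases before the start.
Dio2 upstream: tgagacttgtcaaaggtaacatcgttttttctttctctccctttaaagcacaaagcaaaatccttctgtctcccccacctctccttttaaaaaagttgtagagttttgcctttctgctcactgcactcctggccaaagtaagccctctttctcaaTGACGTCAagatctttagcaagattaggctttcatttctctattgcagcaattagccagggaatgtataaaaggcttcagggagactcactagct

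RefSeq promoter windows, from 250 bases before to 50 after a start, were found for 3 of the 4 genes, with 1 window for Dio2 and a pair each for Thrb and Rxra. Of 32851 windows of that length, 1.79% held TGACGTCA on either strand, and of the 5 windows of these genes, the Dio2 window held it. Its shorter form TGACG, which the full element contains, was in 20.8% of all windows and also in the upstream Thrb window, 56 bases before the start. AGGTCA, the core element bound by receptors of this class, was in 16.3% of all windows. It was found once in the upstream Thrb window and at 2 places in the downstream Rxra window, and not in the Dio2 window. A pair of AGGTCA in the same direction with 4 bases between them, the arrangement known for thyroid hormone receptors, was in none of the 5 windows. These are matches of letters and do not show binding.

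**Figure D1:**
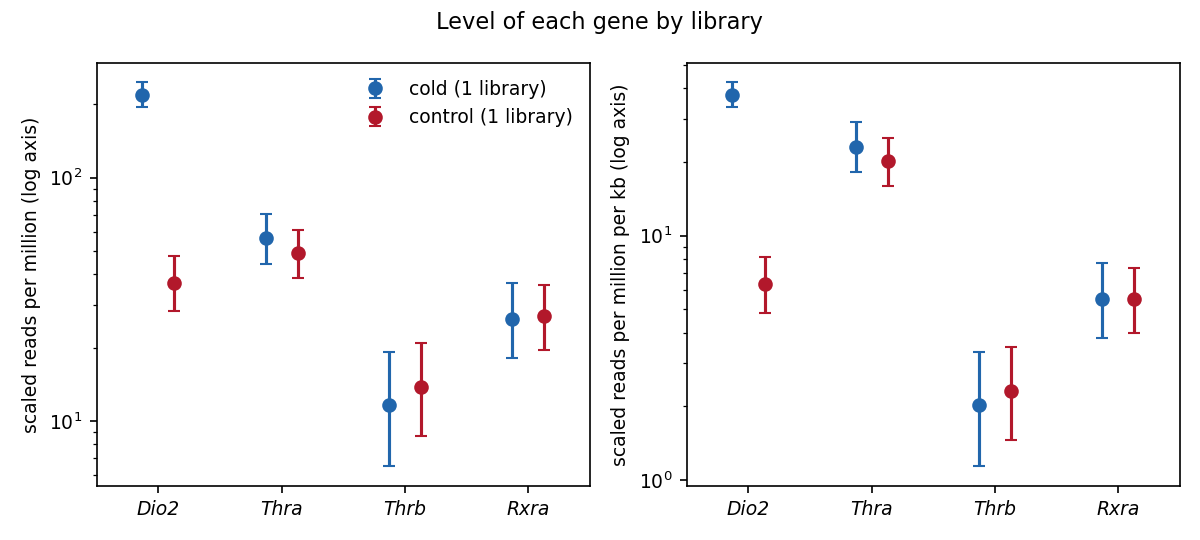
Level of each gene in the cold and the control library, in CPM (left) and in CPM per kb of transcript (right), on log axes. Points are single libraries and bars are 95% counting intervals. Dio2 stands at 219.5 CPM in cold and 37.0 in control, and the intervals of Thra, Thrb and Rxra overlap between the libraries.

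Thra encodes the receptor that prevails in many tissues, among them heart, brain and brown fat. It had 73 reads in cold and 78 in control, or 56.4 (44.2 to 70.9) and 48.9 CPM (38.6 to 61.0). The intervals overlapped, and the ratio of cold to control was 1.15 (0.827 to 1.61). A difference was therefore not detectable at this depth, and the interval leaves out a change of 2-fold in either direction.

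Thrb encodes the other hormone receptor, known for its part in liver, pituitary and the ear. It had 15 reads in cold and 22 in control, or 11.6 (6.49 to 19.1) and 13.8 CPM (8.64 to 20.9). It was the least read of the 4 genes in both libraries. Its ratio of 0.841 (0.406 to 1.70) has an interval that reaches from 2.47-fold lower to 1.70-fold higher, so at this depth a 2-fold fall is within the counting error.

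Rxra had 34 reads in cold and 43 in control, or 26.3 (18.2 to 36.7) and 27.0 CPM (19.5 to 36.3). The levels were nearly equal, with a ratio of 0.975 (0.603 to 1.57). The log2 ratio was -0.04, and it turned to 0.14 when scaled by total counts and to 0.09 when scaled by the total of nuclear-encoded reads, scalings that move the median of all genes to 0.17 and 0.13.

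The order of the genes differed between the libraries. Divided by transcript length, the level in cold was 37.8 CPM per kb for Dio2 (33.5 to 42.4), 23.1 for Thra (18.1 to 29.1), 5.51 for Rxra (3.82 to 7.70) and 2.03 for Thrb (1.14 to 3.35). No neighbours in that order had overlapping intervals, but without the division by length those of Rxra and Thrb overlapped. In control Thra came first at 20.1 CPM per kb (15.9 to 25.1), followed by Dio2 at 6.36 (4.84 to 8.20), Rxra at 5.50 (3.98 to 7.40) and Thrb at 2.32 (1.45 to 3.51). There the intervals of Dio2 and Rxra overlapped, and the other neighbours were apart. Direct RNA reads count molecules from their 3′ ends, so division by length lowers long transcripts such as Dio2. Without it the order in control was the same, but the intervals of Thra and Dio2, of Dio2 and Rxra and of Rxra and Thrb overlapped.

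Reads of 1 gene per read of another within a library need no scaling between libraries. There were 3.89 Dio2 reads per Thra read in cold and 0.756 in control, an odds ratio of 5.12 (3.29 to 8.04, exact conditional interval). Per read of Thra and Thrb together, Dio2 had 3.23 reads in cold and 0.59 in control, with an odds ratio of 5.45 (3.59 to 8.34). Among the receptor genes the balance of reads was not shown to move. These are reads of whole genes, and 69 of 73 Thra reads in cold and 75 of 78 in control were counted on Thra-201. That form, described below, does not bind T3, so the quotients are not a balance of hormone-binding receptors. Thra reads per Thrb read were 4.87 in cold and 3.55 in control (odds ratio 1.37, 0.624 to 3.08), and Thra reads per Rxra read 2.15 and 1.81 (odds ratio 1.18, 0.658 to 2.14).

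Skeletal muscle markers moved with the cold library too. All 16 had reads in both libraries, and their sum was 0.183% of reads (0.176 to 0.191) in cold and 0.0414% (0.0384 to 0.0446) in control. Of the 15 that reached 20 reads in sum, 14 were called higher (93.3%), against 4.2% of all genes. The other, Myl1, was at 1.46 (1.17 to 1.82). The median log2 ratio of the 15 was 2.22, beside 2.56 for Dio2. Dio2 had 0.128 reads per read of these markers in cold and 0.0839 in control, an odds ratio of 1.52 (1.13 to 2.07). Against Ckm, the muscle creatine kinase, with 254 reads in cold and 66 in control, the odds ratio of Dio2 was 1.25 (0.831 to 1.88). Against the sum of the brown adipocyte markers, with 44564 and 46596 reads, it was 5.03 (3.79 to 6.78). Fabp4, with 20787 and 20610 reads, and Ucp1 weighed most in that sum. Of its 12 markers, 1 was called higher and 0 lower. The one called was Elovl3, with 731 reads in cold and 180 in control, a ratio of 5.01 (4.25 to 5.93). What part muscle RNA has in the Dio2 reads was not tested.

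**Figure D2:**
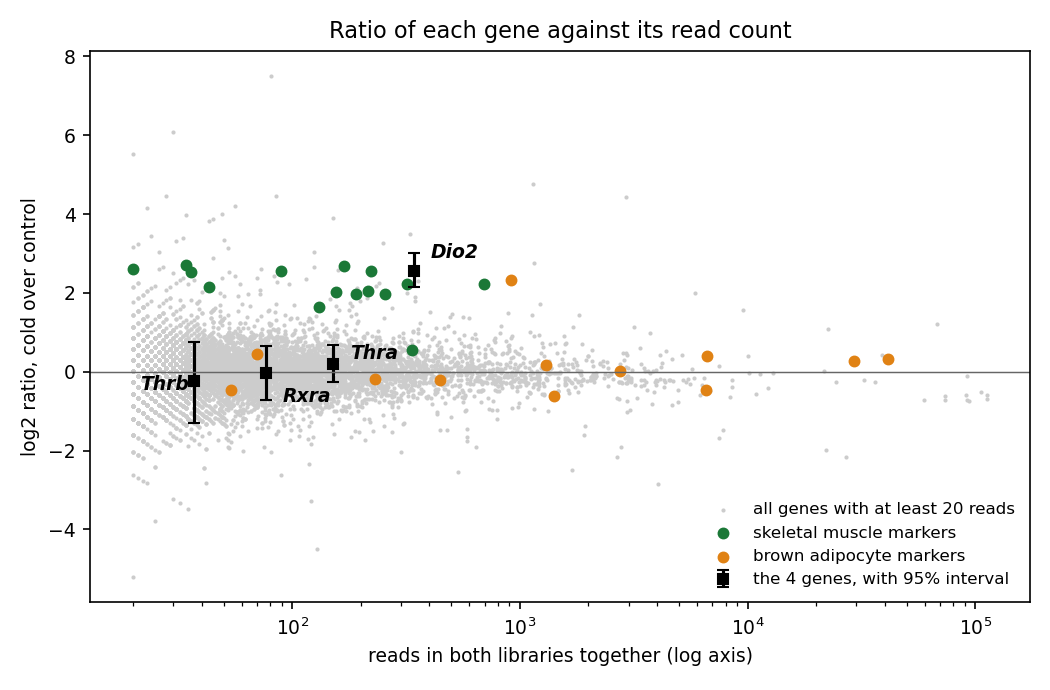
Log2 ratio of cold over control (vertical axis) against the reads of both libraries together (horizontal log axis) for each gene with at least 20 reads. Black squares with 95% intervals are the 4 genes, green points skeletal muscle markers and orange points brown adipocyte markers. Dio2 lies at 2.56. The muscle markers have a median of 2.22 and run from 0.54 to 2.71. The brown adipocyte markers have a median of 0.09 and run from -0.61 to 2.32 (Elovl3). The receptor genes lie between -0.24 and 0.21.

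The genes with the most similar pair of levels were found by the distance between log2 CPM in the 2 libraries. For Dio2 the 5 nearest were Ckm (distance 0.23), Atp2a1, the calcium pump of fast muscle (0.27), Adtrp (0.40), Tnnt3, fast muscle troponin T (0.54), and Npr3, a natriuretic peptide receptor (0.55). Only the first 3 were within 0.5, so few genes shared the level and ratio of Dio2. The receptors lay in crowded regions, with 591 genes within 0.5 of Thra, 943 of Thrb and 876 of Rxra. The nearest to Thra were Cmbl and Gpr108. Thrb shared its counts in both libraries with 8 genes, Aak1 and 2310010J17Rik among them, and Rxra with 2, Safb and Sel1l.

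The transcripts of Thra code for 2 well known proteins with different roles. Thra-202 codes for 410 codons and is TRα1, the receptor that binds T3. Thra-201 codes for 492 codons and is TRα2, which shares the first 370 codons, ends differently and does not bind T3. The bases around the point where their coding parts separate are shown because this is where a hormone receptor and a form without hormone binding differ. Capitals mark the bases past that point.
Thra-201 coding bases 1082 to 1141: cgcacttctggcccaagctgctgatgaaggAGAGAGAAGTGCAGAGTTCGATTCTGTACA
Thra-202 coding bases 1082 to 1141: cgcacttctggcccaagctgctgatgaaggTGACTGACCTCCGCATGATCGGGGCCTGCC

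Nearly all Thra reads were counted on Thra-201. It had 69 of 73 reads in cold, or 94.5% (86.6 to 98.5), and 75 of 78 in control, or 96.2% (89.2 to 99.2). Thra-202 had 4 reads in cold, or 5.48% (1.51 to 13.4), and 2 in control, or 2.56% (0.312 to 8.96). The share of Thra-202 was 2.92 points higher in cold, with an interval from -4.22 to 10.9 (Newcombe), so no shift between the forms was detectable. Thra-203, a shorter model that also ends inside Nr1d1, had 0 reads in cold and 1 in control, and the other 6 annotated transcripts had none.

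The 2 main forms also differ in their 3′ ends, where reads begin. After their paths separate, 849 bases are left to the end of Thra-201 and 705 to that of Thra-202, and 30.8% and 31.8% of their 31-base words occur in no other Thra transcript. Thra-201 ends on chromosome 11 (98740638 to 98769006 for the gene, plus strand) inside Nr1d1, the gene of the clock repressor REV-ERBα on the opposite strand. Of the exon bases of Thra-201, 263 are also exon of Nr1d1-201. Nr1d1 had 131 reads in cold and 119 in control, with a ratio of 1.36 (1.05 to 1.76). Native RNA reads keep their strand, but whether the counting used it is not given in the sources used here, so reads that lie in the shared stretch alone are uncertain.

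**Figure D3:**
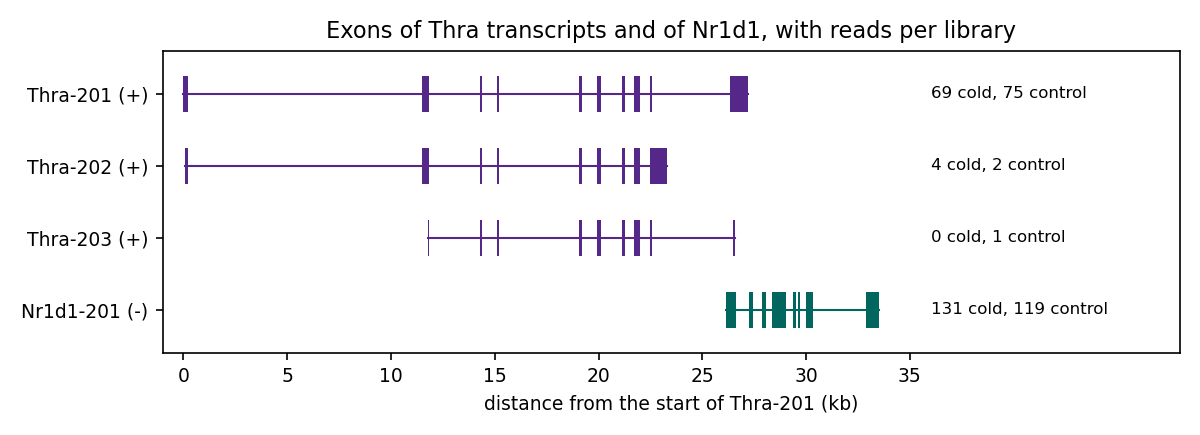
Exons (blocks) and introns (lines) of 3 Thra transcripts on the plus strand and of Nr1d1-201 on the minus strand, by distance in kb from the start of Thra-201. The numbers at the right are reads. Thra-201 has 69 reads in cold and 75 in control, Thra-202, which ends before Nr1d1, 4 and 2.

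The Thrb reads were counted mainly on Thrb-202, which codes for 475 codons and is TRβ2. It had 13 of 15 reads in cold, or 86.7% (59.5 to 98.3), and 21 of 22 in control, or 95.5% (77.2 to 99.9). Thrb-201, with 461 codons, is TRβ1, the form known from liver. It had 1 read in cold and 0 of 22 in control, which allows a share of up to 15.4%. Both end in the same 368 codons and differ before them. The point where the shared coding part begins is shown because nothing after it in the coding sequence tells the forms apart, with capitals for the bases before it.
Thrb-202 coding bases 292 to 351: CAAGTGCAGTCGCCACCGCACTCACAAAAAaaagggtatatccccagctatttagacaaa
Thrb-201 coding bases 250 to 309: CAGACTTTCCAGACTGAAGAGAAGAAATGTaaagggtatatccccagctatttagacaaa

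That point lies 5531 bases from the 3′ end of Thrb-202 and 4000 from that of Thrb-201. The annotated end of Thrb-202 is 1531 bases beyond that of Thrb-201 on chromosome 14 (17660261 to 18038090, plus strand). Of the 31-base words, 35.8% are particular to Thrb-202 and 0.603% to Thrb-201. A read that ends at the far 3′ end thus matches Thrb-202 whatever its 5′ part was. Read lengths were not analysed here, and the counts do not tell which first exons the Thrb molecules had. The retained-intron transcript Thrb-204 had 1 read in cold and 0 in control, and Thrb-207 had 0 in cold and 1 in control.

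Rxra showed the same kind of split. Rxra-201 had 32 of 34 reads in cold, or 94.1% (80.3 to 99.3), and 43 of 43 in control (91.8 to 100%). Rxra-206, with 1 read in cold and 0 in control, codes for the same 467 codons, and its annotated end lies 1540 bases short of that of Rxra-201 on chromosome 2 (27676440 to 27762957 for the gene, plus strand). Rxra-202, which starts further downstream, also had 1 read in cold and 0 in control. A count of 0 of 43 allows a share of up to 8.22%, so these single reads show no difference between the libraries.

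**Figure D4:**
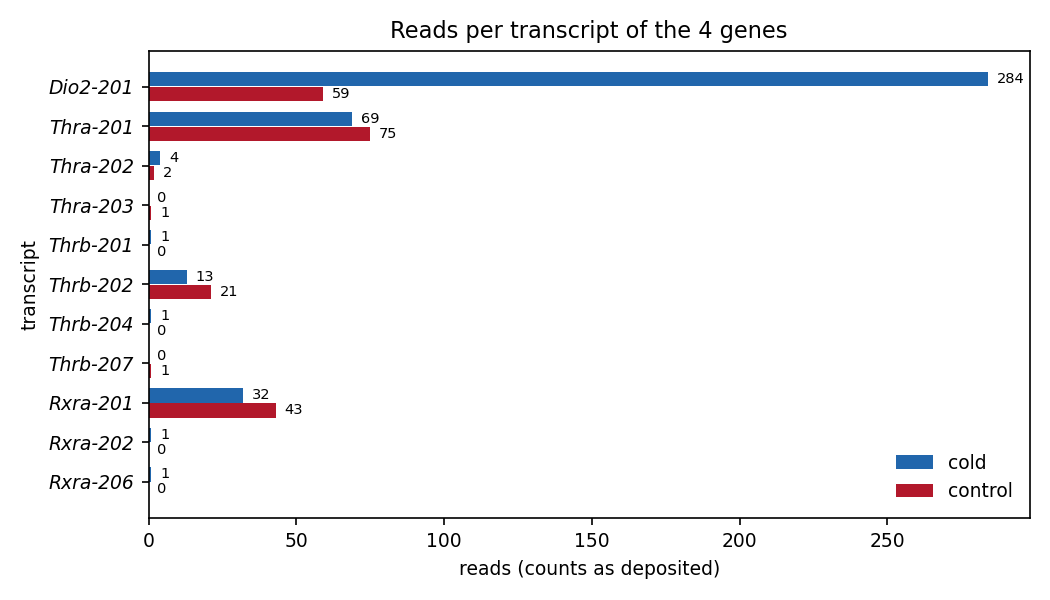
Reads of each transcript of the 4 genes that had any, as deposited counts (horizontal axis), for the cold and the control library. For each gene, all or most reads were counted on 1 transcript. These were Dio2-201 with 284 and 59 reads, Thra-201 with 69 and 75, Thrb-202 with 13 and 21 and Rxra-201 with 32 and 43.

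Genes around Dio2 and its receptors were taken as 6 lists by role. Together they held 123 genes, and 99 of them reached 20 reads over the pair of libraries. Of these, 10 were called higher (10.1%) and 9 lower (9.09%), against 4.2% and 4.08% of all genes. Their median log2 ratio was -0.01, and that of all genes 0.00. The lists were chosen with earlier results of these data known. The shares called, here and in each list below, cannot be told apart from that choice.

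Dio2 was the only deiodinase with reads in these libraries. Dio1, which also makes T3 from thyroxine, and Dio3, which inactivates both hormones, had 0 reads in cold and in control, which allows up to 3 reads each. Of 15 genes for deiodinases and hormone transport, 8 had no read in either library and 4 had at least 20. Of these 4, 1 was called higher (25%) and 0 lower, against 4.2% and 4.08% of all genes. Their median log2 ratio was 0.58. Slc3a2, the heavy chain of amino acid transporters that also carry thyroid hormone, had 113 reads in cold and 47 in control, a ratio of 2.97 (2.09 to 4.26). Its light chain Slc7a8 had 6 reads in cold and 1 in control (ratio 7.40, 0.898 to 340), and Slc7a5 1 and 0. The hormone transporter gene Slc16a10 (MCT10) had 25 reads in cold and 27 in control, a ratio of 1.14 (0.636 to 2.04). Slco2b1, an organic anion transporter, had 21 and 13 reads, a ratio of 1.99 (0.952 to 4.33). When scaled by total counts or by nuclear-encoded reads it was called higher, which made 2 of 4. Tshr, the receptor for thyrotropin, had 5 reads in each library.

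The DIO2 protein is short-lived, since ubiquitin ligases mark it for the proteasome and deubiquitinases rescue it. Usp33, such a deubiquitinase, had 62 reads in cold and 44 in control, a ratio of 1.74 (1.16 to 2.62), and Ube2g2, a ubiquitin-conjugating enzyme, 39 and 27, a ratio of 1.78 (1.06 to 3.03). The ligase gene March6 was not shown to differ, with a ratio of 1.25 (0.858 to 1.83). Wsb1, the adaptor of another ligase, had only 8 reads in cold and 7 in control. Usp20 had 8 and 12.

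Genes of selenoprotein synthesis and other selenoproteins stood in the same list. Secisbp2, which lets the ribosome read TGA as selenocysteine, had 11 reads in cold and 23 in control, a ratio of 0.590 (0.260 to 1.26). The glutathione peroxidases Gpx4, with 1457 and 3205 reads, and Gpx1, with 300 and 684, were 1.78-fold (1.68 to 1.90) and 1.85-fold lower (1.61 to 2.13) in cold. Txnrd1, cytosolic thioredoxin reductase, with 85 and 51 reads, was 2.06-fold higher (1.44 to 2.97). Of the 20 members with at least 20 reads, 1 was called higher (5%) and 0 lower, against 4.2% and 4.08% of all genes. Total counts added Ube2g2, which made 2 higher. Intervals lay above a ratio of 1 for 4 and below it for 3, and the median log2 ratio was 0.11. Over all genes, 11.3% of intervals lay above and 11.3% below. Selenoprotein genes thus lay on both sides. Selenop, the plasma selenium carrier, was 1.39-fold lower (1.19 to 1.63), and Selenot, a selenoprotein of the endoplasmic reticulum, was at 1.39 (1.12 to 1.73).

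The other retinoid X receptors, like Rxra, showed no detectable difference. Rxrb had 61 reads in cold and 70 in control, a ratio of 1.08 (0.750 to 1.54), and Rxrg 42 and 52, a ratio of 0.996 (0.647 to 1.53). Per kb, the level of Rxra was the lowest of the family in both libraries. In cold it was 5.51 CPM per kb (3.82 to 7.70), beside 18.9 for Rxrb (14.4 to 24.3) and 18.4 for Rxrg (13.2 to 24.8). In control it was 5.50 (3.98 to 7.40), beside 17.7 (13.8 to 22.4) and 18.5 (13.9 to 24.3). On the CPM scale Rxra was also the lowest in both libraries. It was at 26.3 CPM in cold, beside 47.2 for Rxrb and 32.5 for Rxrg, and at 27.0 in control, beside 43.9 and 32.6. There its interval overlapped those of Rxrb, narrowly, and of Rxrg in both libraries.

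Rxrb, Rxrg and other nuclear receptors, most of which pair with a retinoid X receptor, made up a list with 11 members of at least 20 reads. Of these, 9 (81.8%) had intervals that held a ratio of 1, near the 77.4% of all genes, and the other two were Ppara and Nr1d1. The REV-ERB genes Nr1d1 and Nr1d2 are in the list, although their products do not need a retinoid X receptor to bind DNA. Pparg, the regulator of adipocyte identity, had 185 reads in cold and 262 in control, a ratio of 0.871 (0.717 to 1.06). Ppara, which drives fatty acid oxidation genes, had 39 and 22 and was called higher at 2.19 (1.26 to 3.87). Ppard had a ratio of 1.14 (0.636 to 2.04), and Nr1d2, the close relative of Nr1d1, of 0.835 (0.556 to 1.24). Rarg was at 0.848 (0.356 to 1.95), and Nr1i3 had 7 reads in cold and 13 in control. Of the 11, 1 was called higher (9.09%) and 0 lower, against 4.2% and 4.08% of all genes. Their median log2 ratio was -0.16, which turned to 0.02 with total counts.

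Corepressors and coactivators of the receptors were called about as often as all genes. Of 24 with at least 20 reads, 1 was called higher and 1 lower, or 4.17% each way, and 21 (87.5%) had intervals that held a ratio of 1, against 77.4% of all genes. The median log2 ratio was -0.01, and 0.16 with total counts. The one called higher was Ppargc1a, with 132 reads in cold and 27 in control, and its ratio of 6.03 (3.96 to 9.49) was close to that of Dio2. Ncor1, a corepressor that binds the receptors without hormone, was at 0.865 (0.583 to 1.28). Hdac3, the deacetylase of that complex, had 27 reads in cold and 52 in control, a ratio of 0.640 (0.387 to 1.04). Ncoa4 was at 1.44 (1.14 to 1.81) and Sin3a at 0.580 (0.217 to 1.42). Med12, a Mediator subunit, had 8 and 24 reads and a ratio of 0.411 (0.160 to 0.946). When scaled by total counts or by nuclear-encoded reads it was not called lower.

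Genes known from liver, muscle or fat to respond to T3 did not move together. The list set no expected direction for each gene, so it does not measure T3 action. Of 27 with at least 20 reads, 4 were called higher and 8 lower, or 14.8% and 29.6%, against 4.2% and 4.08% of all genes. Intervals held a ratio of 1 for 6 of them (22.2%), against 77.4% of all genes. Intervals narrow as reads rise, so this share depends on read depth, which was not matched between any list and all genes. Ucp1, with 14526 reads in cold and 14860 in control, had an interval above 1 at a ratio of 1.21. The median log2 ratio of the 27 genes was -0.26. Those called lower were mostly genes of fat synthesis. Thrsp, named for its response to thyroid hormone, had 1758 reads in cold and 6078 in control and was 2.80-fold lower (2.66 to 2.96). Me1, malic enzyme, with 402 and 1513 reads, was 3.05-fold lower (2.73 to 3.42), and Mlxipl, which encodes ChREBP, with 124 and 310, was 2.03-fold lower (1.64 to 2.52). Acly, Scd1, Fasn and Acaca had the lowest log2 ratios, from -2.84 to -1.92. Dbp, a clock output factor, had 77 and 201 reads and was 2.12-fold lower (1.62 to 2.79).

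Among the 4 called higher were Atp1b1, a sodium pump subunit, Cpt1a of fatty acid entry into mitochondria, and Atp2a1. Their log2 ratios were 3.03, 2.39 and 2.30, and Atp2a1 is also a muscle gene. Klf9, a direct target of the receptors in many tissues, had 122 reads in cold and 115 in control, a ratio of 1.31 (1.01 to 1.70). Ucp1 was at 1.21 (1.18 to 1.23). Hr, a receptor-bound corepressor induced by T3 in brain, had 3 and 12 reads, with an interval of 0.0558 to 1.14. With total counts 4 were called higher and 6 lower.

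Among the genes that lead from noradrenaline to Dio2 transcription, a cyclase and a phosphodiesterase were higher in cold and the adrenergic receptors were not shown to differ. Adcy3, an adenylyl cyclase, had 973 reads in cold and 176 in control, a ratio of 6.82 (5.80 to 8.05), and Pde4d, which degrades cAMP, 66 and 32, a ratio of 2.54 (1.64 to 4.01). These were the 2 genes called higher of 14 with at least 20 reads (14.3%), and 0 were called lower. Over all genes, 4.2% were called higher and 4.08% lower. Scaling by total counts or by nuclear-encoded reads added Crtc2, which made 3. Adrb3, the main adrenergic receptor of mouse adipocytes, had 96 and 134 reads and a ratio of 0.884 (0.673 to 1.16), and Adrb1 46 and 66, a ratio of 0.860 (0.577 to 1.27). Gnas, the stimulatory G protein, was at 1.32 (1.27 to 1.38), and Prkaca, a catalytic subunit of protein kinase A, was 1.19-fold lower (1.01 to 1.39). Prkar2b, a regulatory subunit, was at 0.940 (0.861 to 1.03). Creb1, which encodes a factor known to bind cAMP response elements, had 17 reads in cold and 16 in control, a ratio of 1.31 (0.623 to 2.77). Its relative Atf1 had 15 and 28, a ratio of 0.661 (0.328 to 1.28), and the CREB coactivator Crtc2 33 and 22, a ratio of 1.85 (1.05 to 3.33). The median log2 ratio of the list was 0.26, and 0.44 with total counts.

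**Figure D5:**
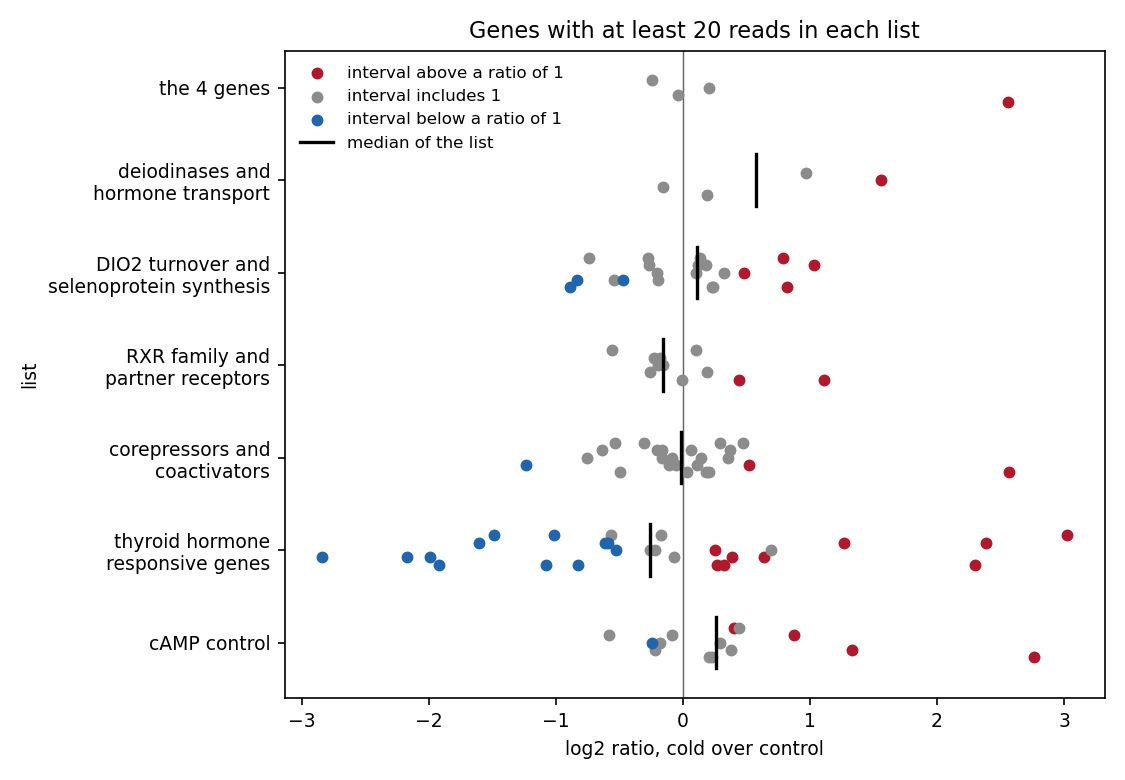
Log2 ratio of cold over control (horizontal axis) for each gene with at least 20 reads, by list (vertical axis), with the 4 genes in the top row. Points are genes, coloured by whether the 95% counting interval lay above, across or below a ratio of 1, and black bars are list medians. Medians run from -0.26 for thyroid hormone responsive genes to 0.58 for deiodinases and hormone transport.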

How the data were processed

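The authors deposited read counts per transcript for 1 cold and 1 control library, with no normalization, and list no transcript below 1 read. Per the submitters' processing notes, minimap2 was used with GRCm38. The sources used here do not state its version, the annotation it was run against, or how a read matching more than 1 transcript was assigned. Transcripts were matched by identifier without version to GENCODE M21, and 0.0652% of cold and 0.0571% of control reads had no match and were kept as single entries.

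Counts were summed to genes and scaled with trimmed-mean (TMM) factors from edgeR 4.0.16 (1.06 cold, 0.94 control). Ratios have Clopper-Pearson intervals of the cold share, levels have Poisson intervals and shares have binomial ones, all exact at 95%, and differences of shares have Newcombe intervals. A count of 0 was read as up to 3 reads. Log2 ratios used a prior of 0.5 reads. The intervals were tried on simulated Poisson counts with the same scaling and no spread between animals or libraries. There 95.98% of the intervals of 7529 genes held the true ratio. Of 200 genes changed 4-fold, 195 were recovered, and 113 of the other genes were called. The simulation shares the assumption of the intervals, so it checks the calculation and not the spread between animals.

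Members and lists were chosen with earlier results of these data known. The text names all members, the 3 highest, 3 lowest and 2 most read genes of each of the 6 lists, and further list genes by role, with Nr1d1 named for its overlap with Thra. A few list genes that this rule or their role would name are not reported here. Marker lists were brown adipocyte, skeletal muscle, endothelium, macrophage and lymphocyte, nerve and Schwann cell, and fibroblast. Alternatives were total counts, DESeq2 size factors (version 1.42.0), the total of nuclear-encoded reads, other read minima, single or protein-coding transcripts, a control thinned to the cold depth and a prior of 2 reads.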

Additional observations from a re-analysis of the deposited data

How the results depend on the processing

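The ratios of Dio2, Thra, Thrb and Rxra stayed within their counting intervals under each alternative run. The log2 ratio of Dio2 lay between 2.47 with the control thinned to 1215617 reads and 2.74 with total counts. Over all genes, 522 were called higher and 189 lower with total counts, in place of 316 and 307, and 93 and 63 with at least 100 reads. The higher share of calls was 50.7%, against 73.4% with total counts and 67.4% with the total of nuclear-encoded reads. Over the related lists it was 52.6%, against 68.4% (13 higher, 6 lower) and 66.7% (12 and 6). Per kb, Dio2 over Thra was 1.63 in cold and 0.316 in control, in place of 3.89 and 0.756. Thra over Thrb was 11.4 and 8.68, and Thra over Rxra 4.20 and 3.66, since the Thra transcript is the shortest. No paired analysis was possible because each group had 1 library. Depth limits Thrb and Rxra most.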

Other observations

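Markers of other cell types that brown fat can hold were measured beside the 4 genes. Of 10 endothelial markers, 9 had at least 20 reads, none was called at 2-fold, and their median log2 ratio was 0.34. Intervals lay above a ratio of 1 for 3 of the 9 and below it for 0, where over all genes 11.3% lay on each side. The sum of the 10 was 0.0643% of unscaled reads in cold and 0.0430% in control. Markers of macrophages and lymphocytes were scarce, with 103 reads in cold and 78 in control over 10 genes. Of these, Adgre1 and Ms4a1 were at 0 in cold, and Ptprc, Cd3e and Cd79a at 0 in control. C1qa and Lyz2 were the 2 with at least 20 reads, at ratios of 1.91 (1.06 to 3.54) and 1.79 (1.11 to 2.93). Nerve and Schwann cell markers had 116 reads in cold and 167 in control, and their 3 members with at least 20 reads had a median log2 ratio of -0.21; Th and Ncam1 were at 0 in both. Fibroblast markers had 312 and 396 reads and a median of -0.11. Of the 12 brown adipocyte markers, 1 was called higher (Elovl3, or 8.33% of the list) and 0 lower, with a median of 0.09.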
